A study of Mus musculus with 4 samples.

Results

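The cells described are somatostatin (Sst) interneurons of the mouse frontal cortex in which the counts of Crh and Tac2 exceed those of the marker pairs of other Sst cells. They number 344, of 2664 cortical Sst cells, 11792 kept cortical cells and 26201 kept cells in the series (26987 barcodes). A cell was a member when it held 200 to 6000 genes, under 30% mitochondrial UMIs (unique molecular identifiers, the counted RNA molecules), at least 2 UMIs of Gad1 and Gad2 together and none of Mog. Sst had to reach 3000 counts per 1000000 (CPM) in the cell, Th and Chodl stay under 2 UMIs and Nos1 under 3. The sum of Crh and Tac2 had to reach 2 UMIs and to be larger than the sum of Calb2 and Cbln4 and than the sum of Myh8 and Nr2f2. These 13 genes therefore chose the cells, so their levels are given as a description and were not tested.

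Somatostatin interneurons release GABA onto the dendrites of their neighbours, and many of them also store neuropeptides in dense-core vesicles. Crh encodes corticotropin-releasing hormone, a peptide known from the hypothalamic stress axis that some cortical interneurons make too, and Tac2 encodes the precursor of neurokinin B, a tachykinin. Interneurons of this kind arise in the medial ganglionic eminence, where their progenitors express Nkx2-1, and take in excitatory input partly through NMDA receptors, of which Grin1 encodes the obligatory subunit.

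The study asked what the loss of these receptors does to such interneurons. Single TdTomato-positive cells were sorted from acute slices of mice aged 18 to 20 postnatal days, of both sexes, and sequenced by the 10x 3′ method. WT animals were Nkx2-1-Cre with Grin1 wt/wt and the Ai14 reporter, and null animals were Nkx2-1-Cre with Grin1 fl/fl and Ai14, so both carried Cre and reporter. Cre was driven by Nkx2-1, so the deletion was made in progenitors of the whole lineage and not in Sst cells alone, and each replicate pooled animals. The cortex has 3 WT and 2 Grin1-null libraries. Replicate 1 of each genotype used version 2 of the 10x chemistry and the other replicates version 3, so a replicate number goes with a chemistry. The null mice shared litters with the WT mice, but the labels tie no replicate number to a litter. The barcodes carry a suffix for the library, which was matched to a replicate by its number of cells.

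The 3 WT libraries held 9306756, 14212183 and 28057207 UMIs in 1277, 3851 and 3960 barcodes, and the 2 null libraries 1488601 and 25688337 UMIs in 181 and 2898 barcodes (replicates in order, here and in all lists of libraries). They gave 70, 67 and 154 members in WT and 7 and 46 in null. Null replicate 1 stands apart with its 7 members: its sum was left out of the gene tests, which took sums of at least 10 cells, and its levels rest on 72695 UMIs. The median member held 10029.5, 6245 and 10762 UMIs in the WT libraries and 8966 and 15481 in the null libraries. WT replicate 2 is thus the shallowest and null replicate 2 the deepest. Over all libraries the median was 10048 UMIs in members and 7167.5 in the 2320 other Sst cells, and its part was tested by repeating the rule with every cell thinned to 3000 UMIs. Of the barcodes, 13 occurred in more than 1 cortical library, and 1 member has such a barcode.

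Crh (mm10 chromosome 3, 19693401 to 19695396) measured 654, 613 and 765 CPM in the members of the WT libraries and 495 and 497 in those of the null libraries. The other Sst cells held 12.4 to 28.6 CPM. Tac2 (chromosome 10, 127724478 to 127731768) measured 103, 769 and 753 CPM in WT members and 0 and 293 in null members, against 0 to 10.8 in the other Sst cells. Crh was thus present in members of every library at similar levels, while Tac2 was low in both replicate 1 libraries, and the 0 of null replicate 1 allows up to 41.3 CPM (3 counts). Sst measured 11588, 10588 and 14049 CPM in WT members and 11046 and 13039 in null members, under the 16119, 12964 and 16482 CPM (WT) and 18457 and 19454 CPM (null) of the other Sst cells of each library.

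At this depth both peptides were found in the same cell in a minority of members. Crh was above Tac2 in 256 members (74.4%), Tac2 above Crh in 83 (24.1%), and the counts were equal in 5. Both were detected in 61 members (17.7%), Crh without Tac2 in 226 and Tac2 without Crh in 57. The pair sum had a median of 7 UMIs (quartiles 4 and 14), with up to 54 UMIs of Crh and up to 133 of Tac2 in a cell. A UMI of Crh was found in 83.4% of members, 8.02% of other Sst cells and 0.246% of 2439 oligodendrocytes, in which the median depth was 5997 UMIs. For Tac2 the shares were 34.3%, 4.70% and 0.0410%.

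The rule's lower edge can be read from cells just inside and just outside it. The 50 members with a pair sum of 2 held 41.3 CPM of Lmo1, 217 of Ptprt, 348 of Calb1 and 18.1 of Pdyn. The 64 Sst cells with a sum of 1 that still lay above both other pairs held 19.3 CPM of Lmo1, 193 of Ptprt, 491 of Calb1 and 135 of Pdyn. The 127 members with a sum of 10 or more held 114, 485, 214 and 7.09 CPM of the same genes. Members at the edge lay between the cells outside and the members with many peptide UMIs for these 4 genes, but not for all of the 10 genes measured. In the same order of groups, Npas1 stood at 410.2, 380.5 and 388 CPM, Lypd6 at 359, 397 and 387, Lrp1b at 232, 135 and 162 and Sst at 11657, 15043 and 13156, with the edge members highest or lowest. Another 92 Sst cells reached a sum of 2 but tied with or fell under another pair, and held 4.09 CPM of Lmo1, 121 of Ptprt, 671 of Calb1 and 178 of Pdyn.

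Npas1 and Lypd6, given with the name of these cells as markers, took no part in the rule. Npas1, a transcription factor, measured 331, 358 and 429.7 CPM in WT members and 193 and 351 in null members, against 205, 172 and 269.5 CPM (WT) and 107 and 199.7 CPM (null) in the other Sst cells. It was higher in the members of every library, by 0.78 (SE 0.09) on the log2 scale over the 4 libraries tested (adjusted p = 2.2e-09, higher in 4 of 4). Lypd6, a membrane-anchored partner of nicotinic receptors, measured 416, 412 and 291 CPM in WT members and 330.1 and 402 in null members, against 424, 315 and 281 CPM (WT) and 281 and 341 CPM (null) in the other Sst cells. The groups overlapped, and the difference of 0.14 (SE 0.09) did not pass (adjusted p = 0.40, higher in 3 of 4). Lypd6 was higher than in Calb2 Cbln4 Sst cells, by 1.14 (SE 0.12) (adjusted p = 3.1e-10, 4 of 4 libraries), and lower than in Myh8 Nr2f2 Sst cells, with a difference of -0.44 (SE 0.11) (adjusted p = 0.0026, 4 of 4). A UMI of Npas1 was found in 92.7% of members, 62.7% of other Sst cells and 0.902% of oligodendrocytes, and thinning to 3000 UMIs left 69.4% and 42.6% of the Sst groups.

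**Figure D1:**
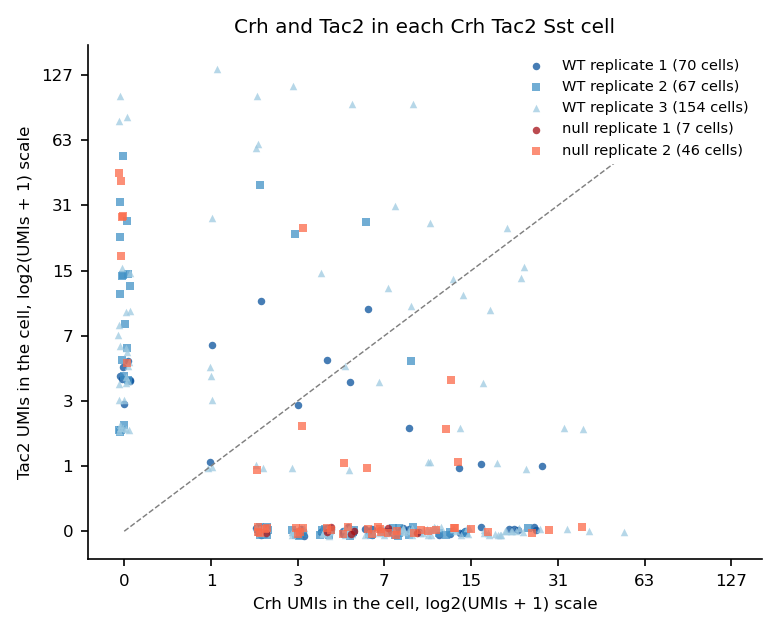
Crh UMIs against Tac2 UMIs of each of the 344 members, on log axes with 1 added, coloured by library. Most of the 256 cells in which Crh leads and of the 83 in which Tac2 leads lie near an axis, and 61 cells hold both.

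Members differed from all other cortical Sst cells in genes of many kinds. The largest rises included receptors and secreted proteins, and the largest falls included a receptor, a peptide precursor and myosins. Of 11357 genes tested, 804 passed (7.08%), 391 higher (3.44%) and 413 lower (3.64%) in members. A gene passed with an adjusted p below 0.01 when its change on the natural-log scale was 0.1 or more. Differences below are members minus other Sst cells on the log2 scale. Lmo1, a LIM-domain transcriptional cofactor (chromosome 7, 109138572 to 109175207), measured 72.1, 63.1 and 93.9 CPM in WT members and 13.8 and 83.0 in null members, against 9.44, 3.65 and 6.63 CPM (WT) and 7.03 and 14.1 CPM (null) in other Sst cells. Members were higher than the other cells of their library throughout, though null replicate 1, with 1 UMI, lay within the range of the other cells. The means were 78.0 ± 13.3 CPM (SD, n = 4 libraries) in members and 8.17 ± 3.90 (n = 5) in other Sst cells, and the log2 difference was 3.37 (SE 0.18) (adjusted p = 6.7e-19, 4 of 4). A UMI of Lmo1 was found in 38.1% of members, 4.70% of other Sst cells and 0.369% of oligodendrocytes, and at 3000 UMIs per cell in 16.5% and 1.78% of the Sst groups. Ptprt, a receptor tyrosine phosphatase (chromosome 2, 161521990 to 162661147), measured 279, 444 and 429 CPM in WT members and 220.1 and 284 in null members, against 41.0, 95.1 and 73.6 CPM (WT) and 77.3 and 76.6 CPM (null) elsewhere. The values did not overlap, and the log2 difference was 2.36 (SE 0.10) (adjusted p = 2.3e-22, 4 of 4).

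Rxfp1, a receptor for the hormone relaxin, had the largest log2 difference of the genes higher in members by the rule for named genes, 3.92 (SE 0.36). It measured 31.9, 25.7 and 24.1 CPM in WT members and 0 and 10.2 in null members, against 0 to 3.65 in other Sst cells, so the members of null replicate 1 lay within that range and those of the other 4 libraries above it. C1ql3, a secreted C1q-like synaptic protein, measured 16.6, 28.1 and 29.3 CPM (WT) and 0 and 7.28 CPM (null) against 0 to 3.37, a difference of 3.59 (SE 0.35). Here too the members of null replicate 1 lay within the range of the other Sst cells. Its share of cells with a UMI, 14.5% of members, was close to the 11.8% of oligodendrocytes, while other Sst cells had 1.03%. The secreted factor Ndnf measured 19.4, 53.8 and 62.8 CPM (WT) and 13.8 and 17.5 CPM (null) against 1.76 to 6.06 (3.22, SE 0.22), without overlap. Sema3c, a secreted guidance semaphorin, measured 66.6, 72.5 and 65.2 CPM (WT) and 68.8 and 39.3 CPM (null) against 4.97 to 9.49 (2.94, SE 0.17), without overlap.

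The serotonin receptor gene Htr2c measured 20.8, 101 and 81.6 CPM in WT members and 13.8 and 36.4 in null members, against 0 to 15.1 in other Sst cells (3.01, SE 0.22). Among the 4 libraries tested WT replicate 1 was lowest, and the members of null replicate 1 lay within the range of the other cells. Of the other genes named as higher, Irs4, an insulin receptor substrate, differed by 2.76 (SE 0.23) and Npr3, the clearance receptor for natriuretic peptides, by 2.39 (SE 0.31). Clstn2, a calsyntenin of the postsynaptic membrane, measured 40.8 to 130.3 CPM against 10.2 to 26.3 (2.29, SE 0.16), and Brinp3 27.5 to 234 against 12.3 to 45.2 (2.38, SE 0.13). Clstn2 did not overlap between members and other Sst cells in any library.

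Among the genes lower in members, Pdyn, the precursor of dynorphin, measured 6.93, 9.35 and 10.6 CPM in WT members and 41.3 and 14.6 in null members, against 183, 171 and 152 CPM (WT) and 344 and 140.4 CPM (null) in other Sst cells. No member value reached those of the other cells, and the log2 difference was -3.93 (SE 0.17) (adjusted p = 1.4e-21, lower in 4 of 4). The oxytocin receptor gene Oxtr measured 0, 0 and 1.76 CPM (WT) and 0 and 2.91 CPM (null) against 26.1 to 56.2 (-4.40, SE 0.37). Myh13 and Myh4, muscle-type myosin heavy chains, measured at most 4.70 and 4.37 CPM in members, against 20.3 to 48.9 and 21.9 to 51.9 (-4.13 and -3.47). They sit on chromosome 11 in the gene cluster of Myh8, which the rule used. Lypd1, a relative of Lypd6, measured 1.39, 0 and 2.35 CPM (WT) and 0 and 0 CPM (null) against 11.6 to 41.4 (-4.04, SE 0.39). Spp1, which encodes osteopontin, reached 128 CPM in the other Sst cells of null replicate 2 and 10.4 to 45.7 in those of the other libraries, against 0 to 5.28 in members (-3.56, SE 0.33).

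The remaining genes named as lower were Chst15 (-4.02, SE 0.43), a chondroitin sulfotransferase, Nkain3 (-4.01, SE 0.34), Col25a1 (-3.50, SE 0.29), a membrane collagen, Filip1 (-3.50, SE 0.31) and Man1a (-3.17, SE 0.26), a mannosidase of the Golgi. Their member levels lay at 0 to 7.04 CPM in all 5 libraries. Low Col25a1 is shared with the Myh8 Nr2f2 Sst cells, which averaged 0.786 CPM, while the Calb2 Cbln4 Sst cells averaged 128. Hbb-bs, a globin of red blood cells, also passed, with 2 UMIs over all members, but its level in other Sst cells was 130 CPM in WT replicate 2 and at most 3.51 CPM in the other libraries. Of the 463 UMIs of that library 457 lay in 1 cell, so the difference rests on that cell, and with DESeq2 or without the library as a block it did not pass.

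**Figure D2:**
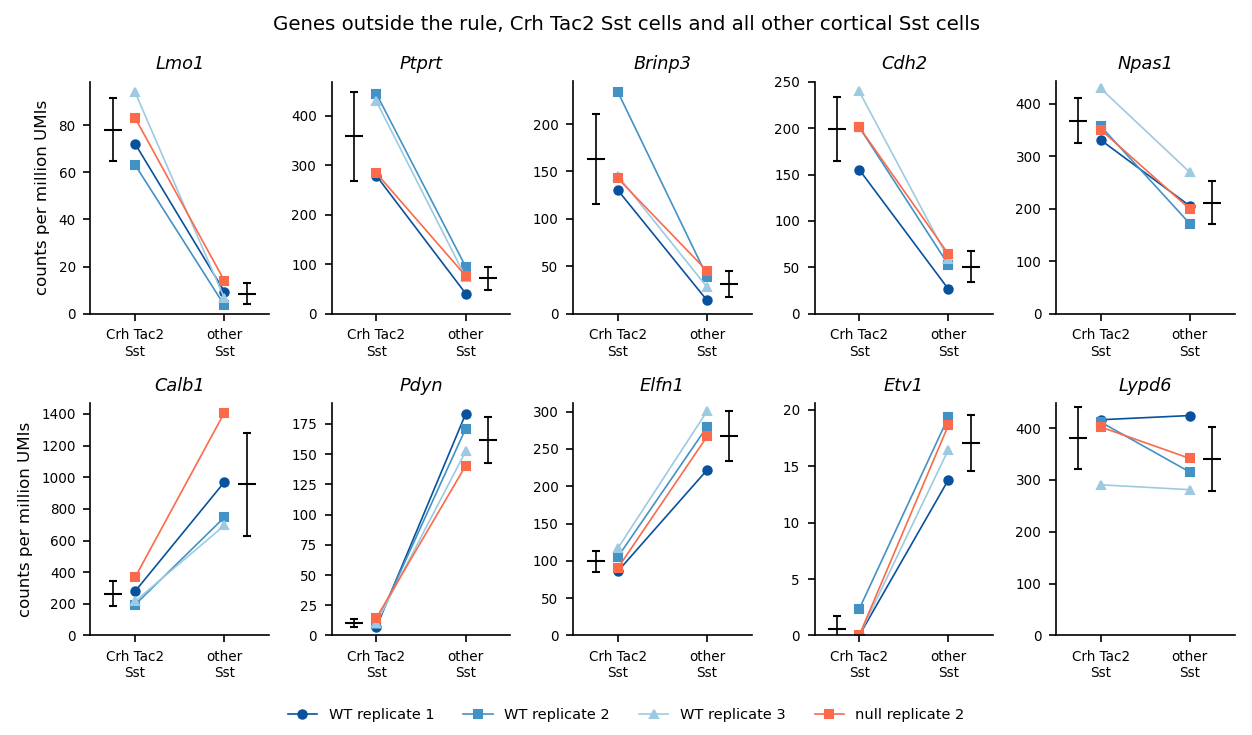
Summed CPM of 10 genes outside the rule in members and in all other cortical Sst cells, with a line for each of the 4 libraries with at least 10 members and bars for the mean and SD of these 4. The lines rise to the members for Lmo1, Ptprt, Brinp3, Cdh2 and Npas1, fall for Calb1, Pdyn, Elfn1 and Etv1, and run both ways for Lypd6.

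The count depends on how the libraries were treated. It was 350 without WT replicate 3, the library with 154 of the members, 352 with DESeq2 and 142 without the library as a block, and all of the 352 and of the 142 genes were among the 804. With the rule applied at 3000 UMIs per cell 596 genes passed, 534 of them among the 804.

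The members' own peptide systems were read from lists of related genes. Of the CRH system, Crhbp, which encodes the protein that binds and sequesters CRH, measured 19.4, 81.8 and 82.8 CPM in WT members and 330.1 and 149 in null members, against 131, 255 and 283 CPM (WT) and 546 and 600.2 CPM (null) in other Sst cells. Members were lower in every library (-1.93, SE 0.11, adjusted p = 1.9e-17, 4 of 4), though the ranges overlap across libraries. The CRH receptor Crhr1 stood at 0 in the members of 4 libraries and at 0.587 CPM (1 UMI) in WT replicate 3. Of the tachykinins, Tac1, the substance P precursor, was lower (-2.20, SE 0.19), with 1.39, 9.35 and 37.6 CPM (WT) and 13.8 and 42.2 CPM (null) in members against 20.0 to 365. Tac1 was also lower than in Calb2 Cbln4 Sst cells (-1.55), but not than in Myh8 Nr2f2 Sst cells (1.40, not past the threshold). Cortistatin (Cort), a relative of somatostatin, was lower too (-0.75, SE 0.12), and Sstr3, a somatostatin receptor, was higher (2.1, SE 0.51, 3 of 4 libraries) at 0 to 11.7 CPM. Against the Calb2 Cbln4 and against the Myh8 Nr2f2 Sst cells 0 of the 2 somatostatin-system genes tested passed. Cort averaged 407 CPM (SD 172) in members, 365 (SD 281) in Calb2 Cbln4 cells and 653 (SD 390) in Myh8 Nr2f2 cells.

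Of 12 other neuropeptides tested, 6 were lower and 3 higher, with a median log2 difference of -0.78 beside 0.00 for all tested genes. Against the Calb2 Cbln4 and against the Myh8 Nr2f2 Sst cells, both described below, 4 were higher and 3 lower, with medians of -0.02 and -0.03. The 3 lower were Npy, Pdyn and Vgf against the Calb2 Cbln4 cells and Cartpt, Pdyn and Penk against the Myh8 Nr2f2 cells. Npy, often made together with Sst, measured 2159, 1798 and 2981 CPM in WT members and 2724 and 1764 in null members, against 3795, 3949 and 3374 CPM (WT) and 7661 and 5026 CPM (null) in other Sst cells, lower in every library (-0.91, SE 0.10, adjusted p = 4.9e-09, 4 of 4). Within members Npy was uneven: 70.3% held a UMI, with up to 683 in a cell, beside 22.2% of oligodendrocytes. Penk, the enkephalin precursor (-1.67), Vgf (-0.65), Cartpt (-1.04) and Grp, with 2 UMIs over all members, were lower as well. Cartpt averaged 111 CPM in members, above the 43.6 of Calb2 Cbln4 cells and under the 303 of Myh8 Nr2f2 cells. Cck, the cholecystokinin precursor, was higher (1.21, SE 0.15), with 41.6, 65.5 and 102 CPM in WT members and 234 and 216 in null members against 23.6 to 54.8, and Pnoc, the nociceptin precursor, was higher by 0.59. Vip also passed, but its 48 UMIs all came from 1 member of WT replicate 2 that also held 9 UMIs of Crh and 290 of Sst, so no fold is given. The null minus WT effect differed between members and other Sst cells for Cck (1.23, SE 0.23), Npy (-0.75, SE 0.15) and Vgf (-0.86, SE 0.17), on null replicate 2 alone, and did not pass with DESeq2 or without the library as a block.

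Of 18 genes of peptide processing and dense-core vesicles, 6 were lower and 2 higher and the others did not pass, with a median of -0.22 beside 0.00 for all tested genes. Chgb, which encodes chromogranin B, measured 180.3, 219.8 and 427 CPM in WT members and 358 and 182 in null members, against 521, 683 and 873 CPM (WT) and 732 and 481 CPM (null) (-1.36, SE 0.09). Secretogranin 2 (Scg2, -0.88), Scg5 (-0.64) and the amidating enzyme Pam (-0.71) were lower too. Syt10 (1.64) and Baiap3 (0.85), both linked to vesicle release, were higher.

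Of 24 transcription factors of interneurons tested, 4 were higher and 8 lower, with a median of -0.26. Maf measured 33.3, 70.2 and 78.1 CPM in WT members and 41.3 and 45.2 in null members, against 107, 272 and 265 CPM (WT) and 200.2 and 163 CPM (null), without overlap (-1.81, SE 0.11). Sox6, which acts in the maturation of these interneurons, was lower (-1.98), as was Zbtb20 (-2.45). Etv1, at 2.34 CPM in members of WT replicate 2 and 0 in those of the other libraries, measured 13.8 to 42.2 CPM in other Sst cells, and its single UMI over all members stands for 0.277 CPM, exact Poisson interval 0.00701 to 1.54. Bcl6 (1.88, SE 0.22) and Sp9 (1.45, SE 0.20) were higher. Lhx6, a factor of the whole lineage, differed by -0.07 (SE 0.11) and did not pass (adjusted p = 0.82, lower in 2 of 4).

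Of 17 tested genes linked to Martinotti cells, the Sst cells whose axons rise to layer 1, 9 were lower and 1, Rxfp1, higher, and the median was -1.20 beside 0.00 for all tested genes. The list also holds 4 genes of the rule, which were not tested. The rule placed cells with more Calb2 and Cbln4, or more Myh8 and Nr2f2, among the other Sst cells. Genes that go with these markers could therefore be lower in members through the choice of cells, and that part was not tested. Calb1, which encodes the calcium buffer calbindin, measured 279, 194 and 215 CPM in WT members and 165 and 367 in null members, against 969, 746 and 695 CPM (WT) and 1315 and 1407 CPM (null) in other Sst cells. The values did not overlap (-1.84, SE 0.08, adjusted p = 5.8e-21, lower in 4 of 4). A UMI of Calb1 was found in 39.0% of members, 82.6% of other Sst cells and 1.39% of oligodendrocytes, and in 26.7% and 75.4% of the Sst groups at 3000 UMIs. Elfn1, which sets the release of the synapses onto Sst cells, measured 86.0, 105 and 117 CPM (WT) and 151 and 90.3 CPM (null) against 222 to 301 (-1.42, SE 0.10), and Reln, a secreted matrix protein, 187, 229 and 228 CPM (WT) and 330.1 and 178 CPM (null) against 351 to 407 (-0.91, SE 0.09). The nicotinic receptor subunit Chrna2 was lower (-2.84), and of 10 nicotinic receptor and Ly6 genes tested, 3 were lower (Chrna2, Chrna4 and Lypd1) and 1 higher (Chrnb3), with a median of 0.06.

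Receptors for glutamate differed in both directions. Of 21 ionotropic genes, 4 were higher and 4 lower, with a median of -0.14. The AMPA receptor subunits Gria1, at 148, 274 and 183 CPM in WT members and 193 and 165 in null members against 304 to 620.0, and Gria3 were lower (-1.29 and -1.18). The NMDA receptor subunits Grin2b (0.47) and Grin2d (0.53) and the kainate receptor Grik1 (0.67) were higher, and Grik3 was lower (-1.05). Of 6 metabotropic receptors, Grm3 (1.18) and Grm5 (0.42) were higher and Grm4 lower (-1.98), around a median of -0.03.

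Some subunits of GABA-A receptors were higher, among them Gabrg3 (1.23), Gabrd (1.01, 3 of 4), Gabrb2 (0.80) and Gabra4 (0.69), while Gabbr2, of the metabotropic GABA-B receptor, was lower (-0.44).

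Of 31 potassium and HCN channel genes, 10 were higher and 5 lower, with a median of 0.09. Kcnip4, an auxiliary subunit of Kv4 channels, measured 216, 157 and 154 CPM in WT members and 193 and 147 in null members, against 38.4 to 47.6, without overlap (1.95, SE 0.11). Dpp10, another Kv4 partner, measured 12.5, 30.4 and 30.5 CPM (WT) and 0 and 16.0 CPM (null) against 74.8 to 154, lower without overlap (-2.24, SE 0.16). Kcnip2 (1.38) and Kcnd2 (0.42), which encodes a Kv4 pore, were higher, and Kcnip1 (-0.65) and the Kv4 pore gene Kcnd3 (-0.82) lower. Of the fast Kv3 channels, Kcnc2 was higher (0.80) and Kcnc1 lower (-0.55). Of 19 sodium and calcium channel genes, 5 were lower and Cacna2d2 alone was higher (0.90, SE 0.09), with a median of -0.19.

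Of 39 synaptic adhesion genes, 11 were higher and 4 lower and the others did not pass, with a median of 0.18 beside 0.00 for all tested genes. Besides Clstn2, Lrrtm1 measured 222, 133 and 194 CPM in WT members and 220.1 and 157 in null members against 44.0 to 64.6, without overlap (1.63, SE 0.10), and Cntnap2 was higher by 1.25 (SE 0.10). Ptprd, a presynaptic receptor phosphatase, was lower (-2.50, SE 0.17), the reverse of its relative Ptprt. Of 22 cadherins and protocadherins, 6 were higher and 9 lower, with a median of -0.29. Cdh2, N-cadherin, measured 155, 201 and 239 CPM (WT) and 55.0 and 201 CPM (null) against 26.5 to 64.2 (2.0, SE 0.11), with null replicate 1 within that range. Pcdh9 was higher (1.14) and Pcdh8 lower (-2.74), and the median is the same with Cdh18, at 0 in all members, set at its bound. Of 14 calcium-binding proteins, 5 were lower and Necab2 higher (1.35), with a median of -0.28.

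The nearest comparison is with the Sst cells chosen by the same rule for another pair. Against the 479 Calb2 Cbln4 Sst cells, members had more Sema3c and Npas1 and less Oxtr, Maf, Zbtb20 and Crhbp. Of 10152 genes tested, 1036 passed (10.2%), 465 higher (4.58%) and 571 lower (5.62%) in members. Sema3c measured 39.3 to 72.5 CPM in members and 0, 1.07 and 1.28 CPM (WT) and 0 and 2.62 CPM (null) in the Calb2 Cbln4 cells, without overlap (5.40, SE 0.38, adjusted p = 3.9e-16, higher in 4 of 4). Egln3, a prolyl hydroxylase of the oxygen-sensing pathway, measured 59.6, 56.1 and 54.0 CPM (WT) and 82.5 and 20.4 CPM (null) in members against 0 to 5.96 (3.49, SE 0.30), and Sorcs3, a sorting receptor, 27.5 to 34.7 against 0 to 6.56 (3.29, SE 0.36). Both were without overlap. Lmo1 (3.90, SE 0.28) was higher too, with null replicate 1 inside the range of the Calb2 Cbln4 cells. Rxfp1 and C1ql3 also passed as higher, and the Calb2 Cbln4 cells held 2 UMIs of Rxfp1 (0.440 CPM, exact Poisson interval 0.0533 to 1.59) and 3 of C1ql3 (0.660 CPM, exact Poisson interval 0.136 to 1.93) over all libraries.

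Oxtr measured 76.2, 91.1 and 75.8 CPM (WT) and 113 and 60.3 CPM (null) in the Calb2 Cbln4 cells, against at most 2.91 CPM in members, a log2 difference of -5.70 (SE 0.35) (adjusted p = 4.6e-18, lower in 4 of 4). Nkain3, which binds the sodium pump, measured 53.8 to 110.3 CPM in the Calb2 Cbln4 cells and was found in the members of WT replicate 3 alone, at 4.70 CPM (-5.41, SE 0.32). Of Etv1, Trbc2, Pcsk5 and A930003A15Rik all members together held 1, 1, 2 and 3 UMIs. In the Calb2 Cbln4 cells Etv1 stood at 21.5 to 47.2 CPM, Pcsk5, a proprotein convertase, at 16.1 to 45.0 and A930003A15Rik at 19.3 to 45.9. Trbc2, from the T cell receptor locus, was uneven there, at 41.3, 20.4 and 39.6 CPM (WT) and 5.38 and 1.31 CPM (null).

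Among the transcription factors, Maf and Zbtb20 stood well under their levels in the Calb2 Cbln4 cells. Maf measured 33.3 to 78.1 CPM in members and 314, 619 and 594 CPM (WT) and 377 and 337 CPM (null) in Calb2 Cbln4 cells (-3.06, SE 0.12), and Zbtb20 0 to 14.0 against 168 to 248 (-4.13, SE 0.22), both without overlap. Satb1, a chromatin organiser of maturing Sst cells, was higher, at 481 to 907 CPM against 285 to 410.5 (1.05, SE 0.08), and so was Npas1 (1.69, SE 0.11). Crhbp measured 19.4 to 330.1 CPM in members against 518 to 1017 (-3.05, SE 0.21), again without overlap. Of the 17 genes linked to Martinotti cells, 10 were lower and 1 higher, with a median of -1.45 beside -0.01 for all genes tested. The compared cells were chosen by Calb2 and Cbln4, and the part of that choice in these counts was not tested. The genes lower here include Calb1 (-2.10, SE 0.09) and Mme, the peptidase neprilysin (-3.31, SE 0.29). The glutamate receptor Grm3 was higher (3.26, SE 0.30), and Grm4 was lower (-3.16, SE 0.36).

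Against the 675 Myh8 Nr2f2 Sst cells, members had more Ptprt, Clstn2, Kcnip4 and Htr2c and less Myh13, Lypd1 and Chrna2. Of 10152 genes tested in the same fit, 849 passed (8.36%), 440 higher (4.33%) and 409 lower (4.03%). Clstn2 measured 130.3, 91.2 and 106 CPM (WT) and 82.5 and 40.8 CPM (null) in members and 0 to 3.27 CPM in the Myh8 Nr2f2 cells, without overlap (5.35, SE 0.29, adjusted p = 1.2e-19, higher in 4 of 4). Ptprt measured 220.1 to 444 against 6.03 to 50.8 CPM (3.85, SE 0.14), Htr2c 13.8 to 101 against 0 to 3.63 (4.45, SE 0.39) and Bcl6, a transcriptional repressor, 13.8 to 49.1 against 0 to 5.44 (3.98, SE 0.37). None of these ranges overlapped. C1ql3 was higher as well (3.81, SE 0.46), and of Rxfp1 the Myh8 Nr2f2 cells held 1 UMI (0.170 CPM, exact Poisson interval 0.00431 to 0.947).

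Of the genes lower than in Myh8 Nr2f2 cells, Lypd1 measured 71.0, 27.2 and 43.9 CPM (WT) and 60.3 and 28.7 CPM (null) in those cells and at most 2.35 CPM in members (-4.88, SE 0.40). Chrna2, the nicotinic subunit, measured 0 to 4.37 CPM in members against 30.8 to 51.7 (-3.77, SE 0.33), and the interleukin receptor relative Il1rapl2 0 to 4.37 against 21.8 to 46.0 (-4.39, SE 0.41), each without overlap. The receptor tyrosine kinase Kit was lower (-4.20, SE 0.55), with overlap through null replicate 1 of the Myh8 Nr2f2 cells, which has 1 UMI. Myh13 (-5.01, SE 0.36) and Myh4 (-4.29, SE 0.30) neighbour Myh8, which chose the compared cells. Sox6 (-2.38, SE 0.15) and Calb1 (-1.83, SE 0.09) were lower without overlap. Several genes that were lower against all other Sst cells did not pass here: Crhbp (-0.41, SE 0.24), Maf (-0.31, SE 0.14), Zbtb20 (0.26, SE 0.37), Col25a1 (0.93, SE 0.70), Nkain3 (-0.76, SE 0.62) and Man1a (-0.41, SE 0.46), with adjusted p from 0.17 to 0.76. Npas1 was not past the threshold either (0.34, SE 0.10, adjusted p = 0.011), and its levels overlapped, at 211 to 382 CPM in the Myh8 Nr2f2 cells.

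Channels and adhesion proteins differed from the Myh8 Nr2f2 cells in both directions. Of 31 potassium and HCN channel genes, 9 were higher and 5 lower, with a median of 0.36 beside -0.01 for all genes tested. Kcnip4 measured 216, 157 and 154 CPM (WT) and 193 and 147 CPM (null) in members against 10.3 to 25.4 CPM, without overlap (3.19, SE 0.18). Of 37 synaptic adhesion genes, 12 were higher and 4 lower, with a median of 0.22. The postsynaptic neuroligin gene Nlgn1 measured 16.0 to 37.4 CPM against 0 to 6.03 (2.90, SE 0.33). Gabrd, a GABA-A subunit of receptors outside synapses, was higher (2.92, SE 0.24), as were the sodium channel Scn1a (1.10, SE 0.11), Syt10 (3.74, SE 0.60) and Nxph2, which encodes a neurexophilin (2.89, SE 0.42).

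Both comparisons come from 1 fit and share the sums of the members. Without WT replicate 3 the counts were 591 and 473, and without the library as a block 322 and 237.

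Members differ among themselves along the peptide that leads. The 256 cells with more Crh UMIs than Tac2 UMIs and the 83 with more Tac2 were summed apart. The test took 57, 46 and 107 Crh-leading and 11, 21 and 44 Tac2-leading cells of the 3 WT libraries, with the 39 Crh-leading cells of null replicate 2, whose 7 Tac2-leading cells were too few. Null replicate 1 has no Tac2-leading cell. Of 8290 genes tested, 105 passed (1.27%), 53 higher (0.639%) and 52 lower (0.627%) in the Crh-leading cells, around a median of 0.01. This comparison shares the members' cells with those above.

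Cartpt, the precursor of the CART peptides, measured 25.7, 33.4 and 10.7 CPM (WT) and 18.6 CPM (null replicate 2) in the Crh-leading cells and 453, 553 and 269.6 CPM (WT) and 499 CPM (null replicate 2) in the Tac2-leading cells. The groups lay far apart in every library with both, and the log2 difference was -4.28 (SE 0.22) (adjusted p = 4.1e-80, lower in 3 of 3 WT libraries). This fit had 2 residual degrees of freedom, so the p leans on a spread shared over genes and does not measure the spread between these libraries alone. Scg2, the secretogranin, measured 177, 214 and 257 CPM (WT) and 144 CPM (null replicate 2) against 639, 537 and 578 CPM (WT) and 754 CPM (null replicate 2) (-1.37, SE 0.14), without overlap. S100a10, an annexin partner, measured 17.2, 46.8 and 33.8 CPM (WT) and 79.4 CPM (null replicate 2) against 79.9, 85.7 and 165 CPM (WT) and 181 CPM (null replicate 2) (-2.03, SE 0.25). In the WT libraries its groups did not overlap, and in null replicate 2 both groups were higher. The cadherin Cdh12, at 0 to 6.68 CPM against 17.8 to 47.8 (-3.32, SE 0.76), Igfbp5, which binds insulin-like growth factors (-3.05, SE 0.69), Rprml (-2.62, SE 0.62) and Rgs10, a regulator of G protein signalling (-2.54, SE 0.39), were also lower in the Crh-leading cells.

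Shisa8, Rxfp1, C1ql3 and Lmo1 were among the genes higher where Crh leads. Shisa8, which encodes an auxiliary protein of AMPA receptors, measured 42.9, 10.0 and 24.7 CPM in the Crh-leading cells of WT and 0 and 47.3 in those of null, and stood at 0 in the Tac2-leading cells of every library, so no fold is given. Rxfp1 measured 39.5, 36.8 and 30.5 CPM in WT Crh-leading cells and C1ql3 20.6, 40.1 and 38.7, while all Tac2-leading cells together held 3 UMIs of Rxfp1 and 2 of C1ql3, all in WT replicate 3. The rule also named Gm13629 (3.02, SE 0.54), Amotl1, at 36.0, 33.4 and 26.4 CPM against 8.88, 0 and 4.35 in WT, and Sbspon, at 17.2, 26.7 and 32.1 CPM against 0, 15.6 and 2.17. In null replicate 2, outside the paired test, Amotl1 was instead higher in the 7 Tac2-leading cells, on 3 UMIs. Lmo1, with 78.9, 80.2 and 115 CPM against 35.5, 23.4 and 43.5 in WT, was higher by 1.40 (SE 0.28) (adjusted p = 0.00013, 3 of 3).

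Crhbp went with Crh: it measured 24.0, 110.3 and 101 CPM (WT) and 172 CPM (null replicate 2) in Crh-leading cells and 0, 15.6 and 39.1 CPM (WT) and 0 CPM (null replicate 2) in Tac2-leading cells, higher in each library (1.66, SE 0.32, adjusted p = 3.1e-05). Cort was higher too (0.69, SE 0.15). Of 17 genes of peptide processing and dense-core vesicles, 4 were lower in the Crh-leading cells (Chgb, Pcsk2, Scg2 and Scg5), with a median of -0.16. Of 27 potassium and HCN channel genes, Kcnab1 and Kcnc2 (0.88, SE 0.15) were higher and 0 lower, with a median of 0.19. Of 18 sodium and calcium channel genes, Scn1a (1.07, SE 0.18) was higher and 0 were lower, with a median of 0.06. Of 19 cadherins and protocadherins, Cdh2 (1.41, SE 0.20), Cdh7 (2.22, SE 0.53) and Pcdh9 (1.53, SE 0.19) were higher and Cdh12, Cdh9 (-1.32, SE 0.30) and Pcdh17 (-0.99, SE 0.18) lower, with a median of 0.13. Clstn2 (1.91, SE 0.27) was higher, and Sox6 (-1.62, SE 0.38), Reln (-0.68, SE 0.16) and the calcium sensor Vsnl1 (-0.56, SE 0.10) lower. Npas1 (-0.27, SE 0.13, adjusted p = 0.54), Lypd6 (-0.21, SE 0.14, adjusted p = 0.72) and Calb1 (-0.17, SE 0.16, adjusted p = 0.89) did not pass, with overlapping levels.

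**Figure D3:**
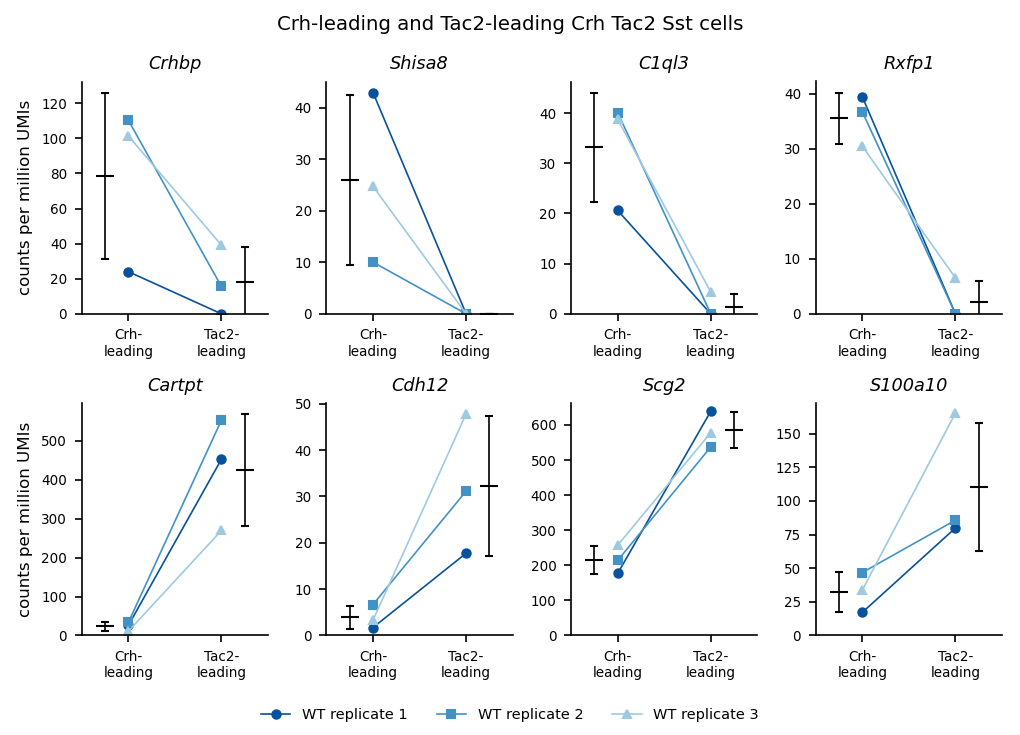
Summed CPM of 8 genes in the Crh-leading and Tac2-leading members of the 3 WT libraries, with a line per library and bars for the mean and SD of the 3. Crhbp, Shisa8, C1ql3 and Rxfp1 are higher in the Crh-leading and Cartpt, Cdh12, Scg2 and S100a10 in the Tac2-leading cells of each library.

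The count of 105 rests on few libraries: it was 25 without WT replicate 3, 17 with DESeq2, 49 with the rule applied at 3000 UMIs per cell and 2 without the library as a block, and all of the 17 and of the 2 were among the 105. Of the 12 genes named by the rule, all but Cartpt no longer passed with DESeq2 or without the block. The share of Tac2-leading cells among members was 15.7%, 31.3% and 28.6% in WT and 0% and 15.2% in null, with means of 25.2% ± 8.34 (SD, n = 3) and 7.61% ± 10.8 (n = 2). Null libraries were lower by the mean (-17.6 points). The share is a description, since Crh and Tac2 chose the cells, and no test of it is used. Within replicate 1 null minus WT was -15.7 points, with 7 members in null, and within replicate 2 it was -16.1, while WT replicate 1 lay close to null replicate 2.

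The number of these cells in each genotype is described by their share among cortical Sst cells. Members made up 17.0% (95% Wilson interval 13.7 to 21.0), 8.91% (7.08 to 11.2) and 13.1% (11.3 to 15.1) in the WT libraries and 10.0% (4.93 to 19.2) and 18.3% (14.0 to 23.5) in the null libraries. The genotypes overlapped: the means were 13% ± 4.06 (SD, n = 3) and 14.1% ± 5.84 (n = 2), a difference of 1.13 points. This share too is a description, since Crh and Tac2 chose the cells, and no test of it is used. A 2-sided exact permutation test of 3 against 2 libraries allows no p under 0.1. Within replicate 1 null minus WT was -7.03 points and within replicate 2 it was 9.34, so the direction turned with the replicate, and WT replicate 3 has no null partner. The difference was -2.47 points with the rule applied at 3000 UMIs per cell and -1.56 as a share of all Gad-positive cells. It was -0.92 without WT replicate 2 and -3.00 without null replicate 2, and 5.25 without null replicate 1.

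Grin1 itself (chromosome 2, 25291181 to 25319187) measured 162, 271 and 225 CPM in WT members and 0 and 7.28 in null members. These are 117, 116 and 383 UMIs in WT and 0 and 5 UMIs in null, and the 0 of null replicate 1 allows up to 41.3 CPM. Both null libraries lay under every WT library, and with null replicate 2 against the 3 WT libraries the log2 difference was -4.89 (SE 0.60) (adjusted p = 0.0064, lower in 2 of 2 null libraries). The other Sst cells held 163, 280.0 and 244 CPM (WT) and 43.9 and 35.6 CPM (null). The null level was lower in members than in other Sst cells of each null library, but the difference between the genotype effects, -2.14 (SE 0.55), did not pass (adjusted p = 0.043).

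Grin1 was the 1 gene of 8613 tested that passed between null and WT members (0.0116%). In the same fit 335 genes had an unadjusted p under 0.05, and DESeq2 called 3. This test has 1 null library, null replicate 2, which is assumed to vary like the WT libraries. Its value lay outside the WT range for 4208 genes (48.9%). The count was 4 without WT replicate 2 and 6 without WT replicate 3. It was 41 without WT replicate 1, where all libraries left in the test used version 3 of the chemistry. Grin1 itself no longer passed with predicted doublets left out (-4.89, adjusted p = 0.012) or with the rule at 3000 UMIs per cell (adjusted p = 0.011), and was lower in null in both. The other NMDA receptor subunits did not pass: Grin2b measured 541, 858 and 723 CPM in WT members and 454 and 402 in null members, which did not overlap (-0.82, SE 0.36, adjusted p = 0.99), and Grin3a measured 336, 528 and 509.5 CPM in WT and 578 and 482 in null members, which did (0.06, SE 0.35).

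Of the 12 genes named as not past the threshold, Thsd7a, Arpp21 and Nefl passed without WT replicate 1. Sfrp2, a secreted regulator of Wnt signals, measured 8.32, 4.68 and 9.39 CPM in WT and 27.5 and 40.8 in null members (2.28, SE 0.55, adjusted p = 0.99), with both null libraries above WT on 2 and 28 UMIs. Ttc37 (2.1, SE 0.88), Mok (1.99, SE 0.85) and P2rx4, an ATP-gated channel (1.96, SE 0.65), also lay above WT in both null libraries, with 1 UMI each in null replicate 1. Gm19412 (2.18, SE 0.85) and Cidea (2.11, SE 0.74) lay above WT in null replicate 2 and at 0 in null replicate 1. Arpp21, an RNA-binding protein regulated by cyclic AMP, measured 69.3, 65.5 and 43.4 CPM in WT and 0 and 8.74 in null (-2.72, SE 0.57, adjusted p = 0.61), and Nefl, the light neurofilament, 30.5, 53.8 and 63.4 CPM in WT and 0 and 8.74 in null (-2.52, SE 0.61), both under WT in both null libraries. Thsd7a measured 20.8, 42.1 and 47.0 CPM in WT and 13.8 and 4.37 in null, where it had 1 and 3 UMIs. For Tex9, Gm608 and Ptpn1 null replicate 2 lay under WT (4.37, 4.37 and 8.74 CPM), while null replicate 1 lay within or above the WT range (41.3, 27.5 and 41.3 CPM).

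Whether the genotypes differ otherwise in members than in the other Sst cells of the same libraries was tested directly. Of 11357 genes tested, 25 passed (0.22%), 11 higher (0.0969%) and 14 lower (0.123%) in members, around a median of 0.02, and for 6411 genes (56.4%) null replicate 2 lay outside the WT libraries. DESeq2 called none (117 genes at an unadjusted p under 0.05, beside 1060 with edgeR). The edgeR count was 47 without WT replicate 1, 7 without WT replicate 3 and 0 without the library as a block (223 at an unadjusted p under 0.05). With the rule at 3000 UMIs per cell it was 12, but 2 of these were among the 25, and all of the 12 genes named by the rule but Mbp no longer passed. Null replicate 2 is also the deepest library. Igfbp6, which binds insulin-like growth factors, measured 5.45, 8.42 and 5.49 CPM in the other Sst cells of WT and 61.5 and 69.6 in those of null, and 5.55, 11.7 and 11.2 CPM (WT) and 68.8 and 11.7 CPM (null) in members. The other cells were thus higher in both null libraries and the members in null replicate 1 on 5 UMIs, so that the difference of effects, -3.22 (SE 0.57) (adjusted p = 0.00032), rests on null replicate 2. For Arpp21 the members of both null libraries lay under WT, while its levels in other Sst cells were 26.1, 22.4 and 14.9 CPM in WT and 10.5 and 26.1 in null (-3.00, SE 0.50). Sfrp2 was low in WT members beside other Sst cells, at 29.0, 49.4 and 44.6 CPM in WT and 54.4 and 51.4 in null there, and nearer to them in null members (2.03, SE 0.44).

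Mbp, a protein of myelin, had a difference of effects of 1.77 (SE 0.30), with 47.1, 30.4 and 38.2 CPM in WT members and 27.5 and 96.2 in null members, so null replicate 2 is high and null replicate 1 is not. The 8 genes of the oligodendrocyte lineage list summed to 157, 86.5 and 140.3 CPM in WT members and 41.3 and 170.4 in null members, and to 167, 135 and 162 (WT) and 155 and 111 CPM (null) in other Sst cells. Mog, which the rule used, and Olig2 were at 0 in members. The part of this list in the Mbp difference was not tested. Jun, an immediate early gene, had a difference of effects of 1.29 (SE 0.24), with 45.8, 217 and 48.1 CPM in WT and 27.5 and 135 in null members, and WT replicate 2 was the highest of the 5.

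**Figure D4:**
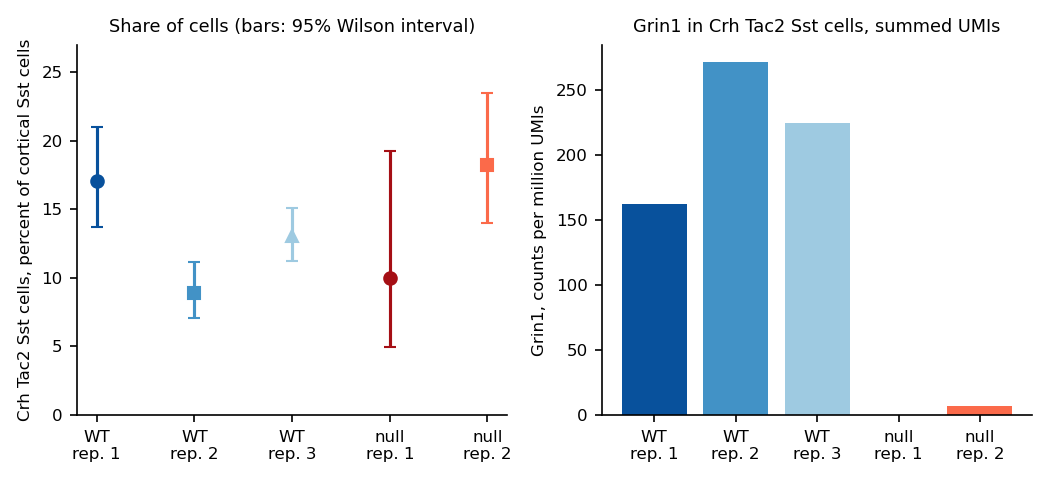
Left, members as a percent of cortical Sst cells in each library, with 95% Wilson intervals; right, Grin1 in CPM of the summed UMIs of members. The shares of WT (8.91% to 17.0%) and null (10.0% and 18.3%) libraries overlap, while Grin1 is 162 to 271 in WT and 0 and 7.28 in null.

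Markers of glutamatergic neurons, vessels and astrocytes were low in members. The 6 markers of glutamatergic neurons summed to at most 2.77 CPM in any library, with Slc17a6, Neurod2, Neurod6 and Tbr1 at 0. The 5 endothelial and mural markers summed to at most 1.39 CPM, with Cldn5, Flt1 and Vtn at 0. Astrocyte markers summed to 13.8 to 30.4 CPM, most of it Aldoc at a mean of 13.4, with Aqp4, Gja1 and Slc1a3 at 0. Markers of other interneurons were not all low. The 8 neurogliaform markers summed to 224 to 399 CPM in members and 371 to 450.6 in other Sst cells, with Reln the most abundant and Lamp5 and Egfr at 0 in members. Of the 4 tested, Sema3c was higher in members and Hapln1 and Reln lower. The 6 markers of interneurons from the caudal ganglionic eminence, among them the rule gene Calb2, summed to 62.4 to 312 CPM in members and 158 to 555 in other Sst cells. Cck, which was higher, was the most abundant of them in members, and Htr3a was at 0. The 9 markers of Pvalb interneurons summed to 1378 to 1788 CPM in members and 1835 to 2225 in other Sst cells, most of it Rbp4, at means of 1260.4 and 1573.7 CPM. The part of these lists in the comparisons was not tested.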

How the data were processed

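Single TdTomato-positive cells were measured in 5 cortical libraries (3 WT, 2 null). The deposited matrices hold UMI counts per gene and cell, which the authors made with Cell Ranger (version 2.1.1 in their notes, 3.0.2 in the matrix header) on mm10 with gene ends extended by up to 4 kb; read depth may have been equalised when libraries were joined. Cells were chosen by the limits given above, UMIs were summed per library and class, and sums of at least 10 cells were tested by the quasi-likelihood test of edgeR 4.0.16 after filterByExpr and TMM, with p-values adjusted after Benjamini and Hochberg. The library was a block for classes, and there was no block between genotypes. Each SE is the size of the log2 difference divided by the square root of the F value of its test. The spread behind F and p is moderated by sharing it between genes. DESeq2 1.42.0 was the other tool. Both ran under R 4.3.3 with limma 3.58.1, beside Python 3.11.15, numpy 2.4.6, pandas 2.3.3, scipy 1.17.1 and scanpy 1.11.5. The fits were tested on simulated data. The 13 rule genes were left out of the tests. CPM were computed from the summed UMIs of a class in a library. Intervals and limits for counts of 0 cover counting error only.

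Named genes are the 12 largest log2 differences each way against all other Sst cells and the 6 largest each way in the other comparisons, past the threshold, with 1 direction in every library tested and at least 20 CPM on average in the higher class; between genotypes null replicate 2, the null library tested, had to lie outside the WT range, and where under 6 passed, 6 each way at an unadjusted p under 0.05 are named as not past the threshold. Genes of the fixed lists are named as well. The members, the lists and their genes were chosen with earlier results of these data known. Replicate numbers of WT and null were not treated as pairs: over 8613 genes the deviations from the genotype means correlated at 0.108 for WT and null replicate 1 and at 0.0630 for replicate 2. Scrublet at an expected rate of 0.06 called 14, 1 and 44 doublets in the WT and 5 and 17 in the null libraries, 1 of them a member. Hippocampal libraries were left out of the comparisons.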

Additional observations from a re-analysis of the deposited data

Results flagged for a closer look

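For 25 genes the difference between null and WT in members differed from that in the other Sst cells of the same libraries, by a test of the difference itself (class by genotype, edgeR). Each value below is the log2 effect in members minus that in other Sst cells, and rests on null replicate 2. None of the 12 genes below passed with DESeq2 or without the library as a block, and at 3000 UMIs per cell Mbp alone did. The difference was -3.22 for Igfbp6, -3.00 for Arpp21, 2.03 for Sfrp2, 1.77 for Mbp and 1.29 for Jun, whose levels are given above. It was 2.15 for Ifi27, an interferon-induced gene, at 11.1, 14.0 and 9.39 CPM in WT members and 0 and 30.6 in null members. It was 1.76 for Krt1, at 55.5, 42.1 and 30.5 CPM in WT members and 13.8 and 62.6 in null members, and the other Sst cells of null (35.1 and 33.1 CPM) lay under those of WT (49.4 to 92.9). It was 1.59 for Hes6, at 23.6, 21.0 and 28.8 CPM in WT members and 41.3 and 62.6 in null members, where both null libraries were higher. It was -2.91 for Thsd7a, which in members of null replicate 2 had 3 UMIs. It was -2.57 for Ano3, at 26.3, 49.1 and 35.2 CPM in WT members and 68.8 and 8.74 in null members, which lay on either side of WT. It was -1.42 for S100a10, whose other Sst cells measured 27.2 to 39.6 CPM in WT and 146 and 155 in null, beside 26.3 to 68.7 and 55.0 and 93.2 in members. It was -1.41 for Cacng3, an AMPA receptor auxiliary subunit, at 79.0, 77.2 and 77.5 CPM in WT members and 124 and 37.9 in null members.

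Cells that meet the same limits appear in the hippocampal libraries, which took no part in the comparisons: 112 of 1406 Sst cells (7.97%), above the limit that a count of 0 allows. They made up 3.93%, 2.96% and 12.0% of the Sst cells of the WT and 1.67% and 12.1% of the null hippocampal libraries, and Crh led in 93 of them.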

How the results depend on the processing

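Counts within 1.5 times of those above are not listed. Members against all other Sst cells gave 804 genes, 352 with DESeq2, 142 without the library as a block, and 350 to 829 with 1 library left out. Against Calb2 Cbln4 cells the 1036 genes became 322 without the block and 591 to 1059 with 1 library left out, and against Myh8 Nr2f2 cells the 849 became 237 and 473 to 894. The 105 genes between Crh-leading and Tac2-leading members became 17 with DESeq2, 49 with the rule at 3000 UMIs, 2 without the block and 25 to 106 with 1 library left out. Between genotypes the 1 gene of edgeR became 3 with DESeq2, 4 without a filter on low counts, 0 with doublets left out (333 at an unadjusted p under 0.05) and 0 with the rule at 3000 UMIs (325), and 1 to 41 with 1 library left out; DESeq2 was run on the full sums alone. With the replicate as a block and sums of at least 5 cells it was 2. The 25 genes whose genotype effects differ became 43 at an adjusted p under 0.05, 12 with library size scaling, 13 with doublets left out, 16 with stricter cell limits, 12 at 3000 UMIs (2 of them among the 25), 7 to 47 with 1 library left out, 0 with DESeq2 (117 at an unadjusted p under 0.05) and 0 without the block (223). The cause was not tested. The share, 1.13 points above WT in null, was -2.47 at 3000 UMIs, -1.56 among all Gad cells and -3.00 to 5.25 with 1 library left out, including -0.92 without WT replicate 2.

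Of the named genes none changed direction in any alternative in which it had a value. Not all had one in each: between Crh-leading and Tac2-leading members 6 of the 12 did without null replicate 2. Against each of both other classes all 12 stayed past the threshold in all alternatives, 180 values each; against all other Sst cells 355 values did and 3 did not (Hbb-bs with DESeq2 and without the block, Spp1 without the block). Between Crh-leading and Tac2-leading members 123 values did and 46 did not, with 11 of 12 genes lost with DESeq2 and 11 without the block. For the differences of genotype effects 98 values did and 70 did not, with all 12 genes lost with DESeq2 and without the block and 11 at 3000 UMIs. Sums of at least 5 cells were chosen after seeing the data. The replicate block between genotypes at 10 cells, and both genotype fits without null replicate 2, could not be fitted. The depth of null replicate 1, 7 members, limits every genotype value.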

Other observations

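The hippocampal cells that meet the limits for Crh Tac2 Sst cells held 355 CPM of Crh in WT and 473 in null, summed over libraries. The null sums rest almost wholly on null replicate 2, with 65 of these cells, beside 1 in null replicate 1. Lmo1 stood at 153 and 95.4 CPM in them and at 88.1 and 68.9 in the other hippocampal Sst cells, a smaller distance than in the cortex. Ptprt (163 and 245 CPM against 166 and 178) and Brinp3 (39.2 and 65.8 against 39.5 and 44.5) hardly differed in WT and were higher in null. Sema3c was higher in both genotypes, at 30.9 and 20.4 CPM against 8.37 and 3.27. Calb1 measured 144 and 397 CPM in them and 380.1 and 701 in the other hippocampal Sst cells. Crhbp, lower in the cortical members, was higher here, at 536 and 778 CPM against 328 and 584. None of these values was tested.

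Activity-regulated genes summed to 230.2, 772 and 270.0 CPM in WT members and 371 and 488 in null members, and to 243, 1221 and 293 (WT) and 353 and 503 CPM (null) in other Sst cells, so WT replicate 2 is highest in both. Of 17 tested against all other Sst cells, Nptx2, a secreted pentraxin that clusters AMPA receptors (-2.96), and Nr4a2 (-1.96) were lower. Genes that dissociation induces summed to 2891, 2731 and 2964 CPM in WT members and 4306 and 1973 in null members, beside 2565, 2818 and 2893 (WT) and 2945 and 1953 CPM (null) in other Sst cells. Their part in the comparisons was not tested. Of the genes listed for Th interneurons, Bcl6 (1.88) and Rasgrp1 (0.90) were higher in members and Nr4a2 lower. Tomato, the reporter, measured 498, 751 and 620.5 CPM in WT members and 550.2 and 832 in null members.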
